A study of Mus musculus with 35 samples.

Results

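The genes described here are 41 named genes of the interferon response and of antigen presentation by the major histocompatibility complex (MHC) class I, taken by name from the 54119 genes of the files. They were measured in RNA of sorted mouse brain cells, and the design compares brain regions and diets. Cells were pulled out with magnetic beads against ACSA2, a surface protein of astrocytes. The donors were male C57BL/6JRj mice aged 8 to 9 weeks when the diets began: standard chow (SC), or a diet rich in fat and sugar (HFHS, 58%), for 4 months. Each replicate combined the tissue of 2 mice. The groups on SC held 6 hypothalamus, 5 hippocampus and 6 cortex replicates, and the groups on HFHS held 5, 7 and 6. Because a replicate is a pool, p-values measure the spread between pools and not between single mice. MS columns were used for hypothalamus and hippocampus, and LS columns with scaled reagent volumes for cortex, so column type and region cannot be told apart.

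Cells that meet viral RNA or DNA release interferons, which bind receptors on the same and on neighbouring cells. The receptor kinases then activate transcription factors, among them STAT2 with IRF9, which enter the nucleus and switch on interferon-stimulated genes. Products of these genes block viral RNA and protein synthesis, tag proteins with ISG15, or raise the supply of peptides to MHC class I molecules at the cell surface. In the brain, microglia, endothelial cells and astrocytes all carry interferon receptors, and resting astrocytes express MHC class I genes at low levels.

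The motif that the STAT2 and IRF9 complex binds, the interferon-stimulated response element, holds a GAAA repeat. Promoters from RefSeq on build GRCm38.p6 (250 bases before to 50 after the gene start) were found for 33 of the 41 genes. They were searched on both strands for GAAA followed, after 2 free letters, by a further GAAA. This pattern lay in a promoter of 17 of the 33 genes (51.5%), against 3.99% of 27025 genes and 3.44% of 32851 promoters. The gamma-activated site TTCNNNGAA, named for interferon gamma, lay in 9 of the 33 (27.3%), against 9.55% of all genes and 8.3% of all promoters. The 250 bases before the start are shown for the 6 genes with the GAAA pattern that had the highest mean level, since they show how differently it is placed in these genes; capitals mark it on either strand, and overlapping matches run together.
B2m, chr2:122147437-122147686, plus strand: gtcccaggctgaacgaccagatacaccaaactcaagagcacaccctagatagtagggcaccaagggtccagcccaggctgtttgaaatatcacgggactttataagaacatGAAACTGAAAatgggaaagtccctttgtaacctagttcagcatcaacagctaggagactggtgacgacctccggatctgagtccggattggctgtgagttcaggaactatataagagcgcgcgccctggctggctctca
Ifit3, chr19:34583279-34583528, plus strand: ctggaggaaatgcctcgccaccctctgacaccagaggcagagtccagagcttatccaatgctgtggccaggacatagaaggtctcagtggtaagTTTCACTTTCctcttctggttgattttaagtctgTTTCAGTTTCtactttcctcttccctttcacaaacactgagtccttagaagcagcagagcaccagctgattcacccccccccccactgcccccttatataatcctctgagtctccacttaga
Bst2, chr8:71537473-71537722, minus strand: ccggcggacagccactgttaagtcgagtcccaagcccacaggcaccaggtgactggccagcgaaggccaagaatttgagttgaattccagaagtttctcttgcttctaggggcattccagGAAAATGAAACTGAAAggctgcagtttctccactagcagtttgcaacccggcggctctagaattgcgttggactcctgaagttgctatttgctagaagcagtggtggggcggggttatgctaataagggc
Ifit3b, chr19:34607707-34607956, plus strand: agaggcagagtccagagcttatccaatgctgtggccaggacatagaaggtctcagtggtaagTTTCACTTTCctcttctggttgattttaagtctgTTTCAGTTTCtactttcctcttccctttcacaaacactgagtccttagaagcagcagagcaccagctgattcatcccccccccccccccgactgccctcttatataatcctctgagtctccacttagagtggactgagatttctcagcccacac
Irgm1, chr11:48871421-48871670, minus strand: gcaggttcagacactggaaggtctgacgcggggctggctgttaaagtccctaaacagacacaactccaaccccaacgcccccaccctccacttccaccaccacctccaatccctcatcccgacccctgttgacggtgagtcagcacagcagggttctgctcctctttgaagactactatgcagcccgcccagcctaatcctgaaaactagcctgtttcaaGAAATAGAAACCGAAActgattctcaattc
Igtp, chr11:58199306-58199555, plus strand: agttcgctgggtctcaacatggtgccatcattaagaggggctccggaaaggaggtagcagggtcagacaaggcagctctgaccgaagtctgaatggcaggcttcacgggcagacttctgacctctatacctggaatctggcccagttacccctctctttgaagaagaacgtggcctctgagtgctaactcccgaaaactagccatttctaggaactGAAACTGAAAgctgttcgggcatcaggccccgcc
The pattern began 139 bases before the start of B2m, and at 156 and 122 bases before that of Ifit3. Ifit3b, a near copy of Ifit3, held the same pair at 188 and 154 bases before its start. In Bst2 it began at 130 and again at 124 bases before the start, in Irgm1 at 30 and 24, and in Igtp at 34. Psmb10, H2-K1, H2-D1 and Lgals3bp, which feature below, held no such pattern in this window. A match describes the letters and is not evidence that the site is bound in these cells.

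The libraries held 47454863 to 65812236 estimated reads on annotated genes. Markers put in question the label of astrocytes for the whole sample. The summed level of 8 oligodendrocyte markers was 66609 to 93437 TPM (transcripts scaled for length and library total) in hypothalamus on SC, where that of 10 astrocyte markers was 2221 to 3837. In cortex on SC the ranges were 6576 to 50180 and 7535 to 20080. Sums of 12 microglia markers lay between 135 and 2426 TPM over all libraries and those of 10 endothelial markers between 154 and 5786, with no marker of these 4 lists at 0 throughout. T and B lymphocyte markers summed to 1.93 to 15.4 TPM, and Cd3e, Cd3d, Cd4, Cd8a, Cd79a and Ms4a1 each had a mean under 1 TPM. In such bulk samples, fewer cells of a type and less RNA per cell cannot be told apart. In 3 libraries (cortex SC replicate 6, cortex HFHS replicate 6 and hypothalamus SC replicate 6) the mean transcript length was 1922, 2179 and 2483 bases, with 2985 bases as the longest of all libraries. The next shortest was hypothalamus HFHS replicate 1 at 2530 bases, so hypothalamus SC replicate 6 was not set apart as the cortex libraries were.

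All 41 genes were detected and entered every test. Over the 35 libraries, 4 of them had a mean above 100 TPM. These were B2m, the light chain of MHC class I (428 TPM), Ifi27, an interferon-induced membrane protein (315 TPM), and the MHC class I heavy chains H2-D1 (228 TPM) and H2-K1 (157 TPM). Next came Psmb10, a subunit of the immunoproteasome that cuts peptides for MHC class I (73.5 TPM), Lgals3bp, a secreted glycoprotein (59 TPM), and Xaf1, a partner of an apoptosis inhibitor (52.6 TPM). At the low end, 10 genes had a mean under 5 TPM, among them Mx2 (1.16 TPM) and Mx1 (0.159 TPM) of the Mx GTPase family. The Mx2 gene is annotated as a polymorphic pseudogene. Mx1 had no read in 4 libraries and was the only one of the 41 genes at 0 in any library.

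On the log2(TPM + 1) scale, the 41 genes spread more between replicates than all genes did in 5 of the 6 groups, by the medians below. The 41 genes and all genes were not matched for level. Adding 1 narrows the SD of genes with low TPM, and the part of level in these gaps was not tested. In cortex on SC the median SD of the genes on the log2(TPM + 1) scale was 1.10, against 0.47 over all genes, and the highest replicate was at the median 12.88 times the lowest. In hippocampus on SC the same 3 values were 0.62, 0.30 and 3.19, and in cortex on HFHS 0.73, 0.45 and 5.25. The hypothalamus replicates on SC were closer to each other, with 0.31, 0.32 and 1.96. On HFHS the hypothalamus had 0.44, 0.33 and 2.20 and the hippocampus 0.47, 0.35 and 3.09.

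The highest and lowest levels fell in particular libraries. Cortex SC replicate 4 was the highest of its group for 39 of the 41 genes, while it was the highest for 25.5% of 19216 genes. Cortex SC replicate 6 was the lowest for 29 of the 41, close to its share of 62% of all genes. In hippocampus on SC, replicate 4 was the highest for 30 of the 41, against 23.9% of all genes, and in cortex on HFHS replicate 5 was the highest for 26, against 24.8%. The lowest in cortex on HFHS was replicate 6 for 22 of the genes, as for 53.4% of all genes, and replicate 3 for 17 (12.8%).

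**Figure D1:**
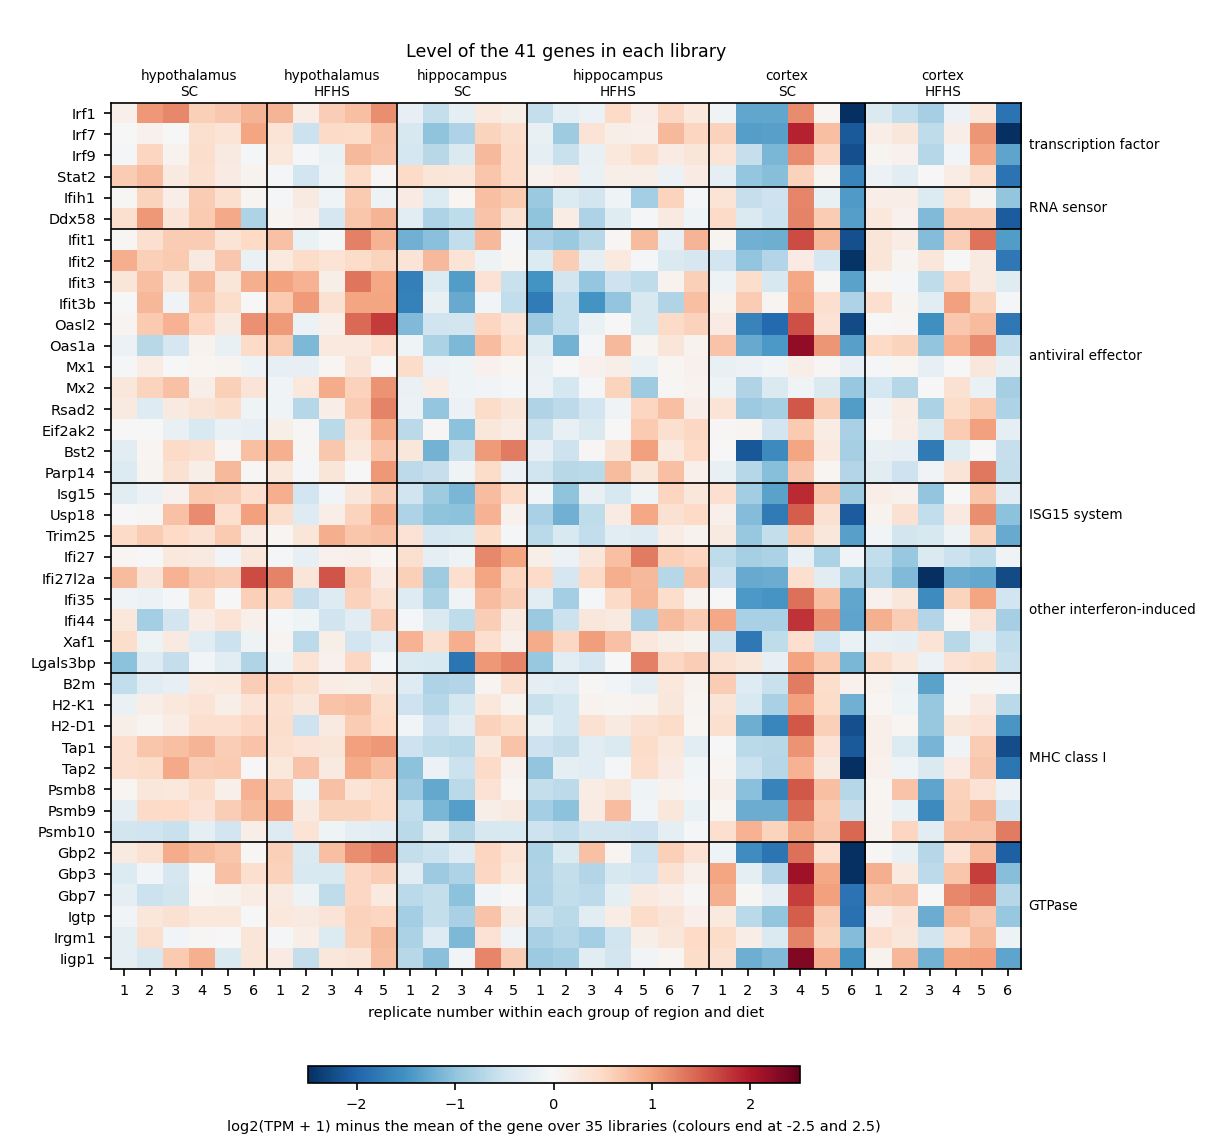
Level of each of the 41 genes (rows, by role) in each of the 35 libraries (columns, by group), as log2(TPM + 1) minus the mean of the gene. Cortex SC replicate 4 is red for nearly all genes (highest of its group for 39 of 41, against 25.5% of all genes), and cortex SC replicate 6 is blue for most (lowest for 29, against 62% of all genes).

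The summed level of 37 genes, without the 4 most abundant, was set beside marker sums in each library. In cortex on SC it was 621, 446, 361, 1285, 755 and 373 TPM in replicates 1 to 6. Endothelial markers summed to 2513, 493, 409, 5786, 2300 and 342 TPM in the same libraries, and microglia markers to 944, 135, 190, 1218, 1058 and 257 TPM. Mural cell markers summed to 627, 140, 231, 1015, 513 and 80 TPM and border macrophage markers to 27.4, 4.7, 8.4, 54.3, 31.7 and 9.74 TPM. Replicates 1, 4 and 5 were the 3 highest for the 37 genes and for each of these 4 marker lists. They were also the 3 highest for neuron, fibroblast, oligodendrocyte precursor and lymphocyte markers, so the match was not particular to the first 4 lists. Neuron markers summed to 473, 233, 203, 350, 412 and 103 TPM. For astrocyte, oligodendrocyte, ependymal and choroid plexus markers the 3 highest libraries were others. In cortex on HFHS the 37 genes summed to 603, 607, 372, 714, 840 and 432 TPM, endothelial markers to 1652, 1549, 443, 1415, 1881 and 478 TPM, and microglia markers to 967, 1342, 435, 989, 846 and 379 TPM. There the 3 highest libraries were not the same for the 37 genes (2, 4 and 5), endothelial markers (1, 2 and 5) and microglia markers (1, 2 and 4). In hippocampus on SC the 37 genes summed to 445, 411, 399, 815 and 710 TPM, endothelial markers to 819, 444, 391, 1524 and 1551 TPM and microglia markers to 550, 465, 541, 645 and 863 TPM. In hippocampus on HFHS the 37 genes summed to 416, 418, 515, 594, 699, 636 and 690 TPM, endothelial markers to 939, 337, 541, 590, 771, 1230 and 620 TPM and microglia markers to 476, 1201, 753, 2426, 935, 760 and 652 TPM. Replicate 1 was there the lowest for the 37 genes and the second highest for endothelial markers. The 37 genes stayed between 565 and 743 TPM in hypothalamus on SC and between 628 and 831 TPM there on HFHS. The part of endothelial cells, mural cells, microglia, border macrophages or any other cell type in the differences described below was not tested.

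**Figure D2:**
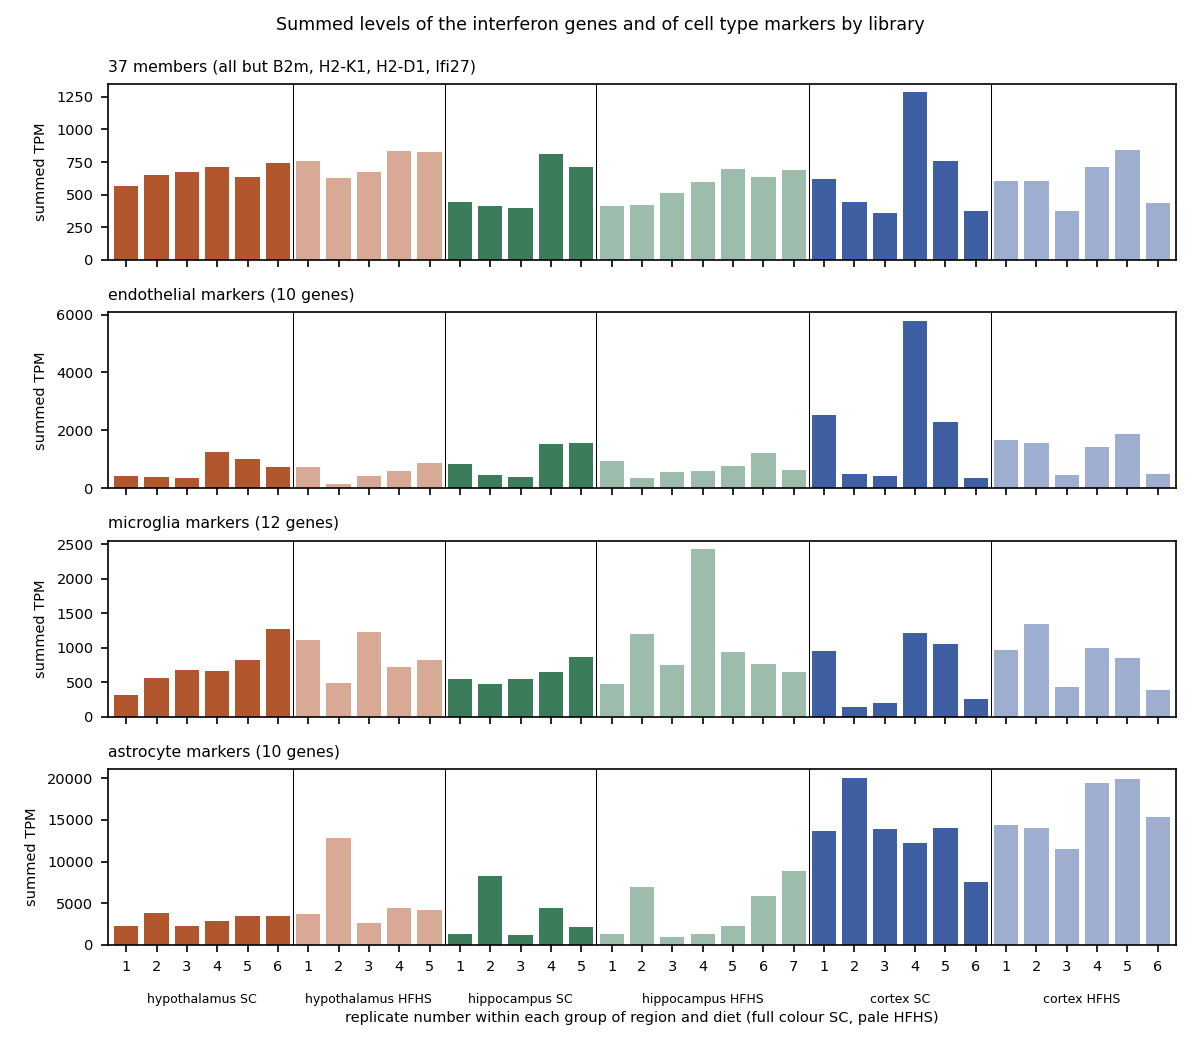
Summed TPM of 37 of the genes and of endothelial, microglia and astrocyte markers in each library, 1 bar per library. In cortex on SC, replicates 1, 4 and 5 are the highest for the 37 genes (621, 1285 and 755 TPM) and for endothelial markers (2513, 5786 and 2300 TPM).

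Region differences were tested with edgeR's quasi-likelihood test in 1 model of all 6 groups on 21574 genes, and a gene was called when its Benjamini-Hochberg adjusted p was under 0.05. On SC, hypothalamus differed from cortex in 8 of the 41 genes. Ifit2 and Mx2 were higher in hypothalamus, and Eif2ak2, Lgals3bp, B2m, Psmb10, Gbp7 and Irgm1 were lower. Of all genes tested, 17.7% were called higher and 18.3% lower, so neither 2 nor 6 of 41 was a larger share than among genes at large. The median log2 difference over the 41 genes was -0.25 with 15 positive, against a median of 0.06 over all genes. Without cortex SC replicate 4 the median was 0.15 with 26 positive, and 4 genes were called in each direction.

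Hippocampus on SC was lower than cortex in 8 of the 41 genes, Ifit3, Ifit3b, B2m, H2-K1, Psmb8, Psmb10, Gbp7 and Irgm1, and higher in Ifit2. The background was 15.3% of all genes lower and 15.4% higher, so 8 of 41 was close to the share among all genes. The median of the 41 genes was -0.52 with 9 positive. Without cortex SC replicate 4 that median was -0.06 with 20 positive, 7 genes were called lower and 1 higher. Between hypothalamus and hippocampus on SC, Ifit3 alone was called, higher in hypothalamus, against 5.86% of all genes higher and 4.13% lower. There 32 of the 41 genes had a positive difference, with a median of 0.31, which was 0.15 without hippocampus SC replicate 3 and 0.50 without hippocampus SC replicate 4.

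The mice on HFHS gave the same contrasts in other libraries. Hypothalamus was higher than cortex in Irf1, Mx2 and Ifi27l2a and lower in Psmb10 and Gbp7, with 14.6% of all genes higher and 9.21% lower. Hippocampus was higher than cortex in Ifi27l2a and lower in Ifit3b, Psmb10 and Gbp7, with 13.4% and 10.8% of all genes. Hypothalamus was higher than hippocampus in Ifit3 and Ifit3b, with 4.24% of all genes higher and 2.18% lower. Medians over the 41 genes on HFHS were 0.06, -0.22 and 0.41 in the same order, and the first was -0.06 without cortex HFHS replicate 3. The median for hippocampus against cortex was -0.08 without cortex HFHS replicate 5 and -0.40 without cortex HFHS replicate 3.

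The calls on both diets were set side by side. Against cortex, Mx2, Psmb10 and Gbp7 were called in the same direction in hypothalamus on both diets, 3 of 8 calls on SC and 3 of 5 on HFHS. In hippocampus these were Ifit3b, Psmb10 and Gbp7, 3 of 9 calls on SC and 3 of 4 on HFHS. Between hypothalamus and hippocampus it was Ifit3, the 1 call on SC and 1 of 2 on HFHS. Over all genes, 48.7%, 52.7% and 42.9% of the calls on SC were also called in the same direction on HFHS in these 3 contrasts, and 73.7%, 67% and 66.8% of the calls on HFHS were so on SC. The sign of the SC calls among the 41 was the same on HFHS in 7 of 8, 8 of 9 and 1 of 1 cases, against 92%, 95.3% and 98.9% of the calls over all genes. Because both comparisons with cortex use the same cortex libraries, they are given side by side and not counted as repeats of each other.

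The balance of higher and lower calls depended on the method and scale. Limma on log2(TPM + 1) takes a level per length, is another test, and was run without the TMM scaling between libraries used for edgeR. Which of these differences moved the calls was not tested. With limma, 10 of the genes were called higher and 1 lower in hypothalamus against cortex on SC, and 5 higher and 2 lower in hippocampus. Of all genes, 34.3% were higher and 6.67% lower in the first of these contrasts on that scale, and 26.8% and 6.88% in the second. On HFHS the TPM scale gave 6 higher and 1 lower in hypothalamus against cortex (19.2% and 4.64% of all genes), and 3 and 2 in hippocampus against cortex (17.7% and 6.26%). Hypothalamus against hippocampus gave 2 higher on SC (10.8% of all genes, with 2.57% lower) and 3 higher on HFHS (6.46%, with 2.43% lower), with none of the 41 lower on that scale. In each contrast with cortex the higher calls were thus a smaller share of the 41 genes than of all genes. The median of all genes itself moved on that scale, to 0.30, 0.23 and 0.05 on SC and 0.15, 0.13 and 0.03 on HFHS for the 3 contrasts in that order. Of the 41 genes the TPM medians were 0.51, 0.04 and 0.39 on SC and 0.49, 0.01 and 0.43 on HFHS. The hypothalamus was therefore above the median of all genes on this scale, and the hippocampus below it, relative to cortex.

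**Figure D3:**
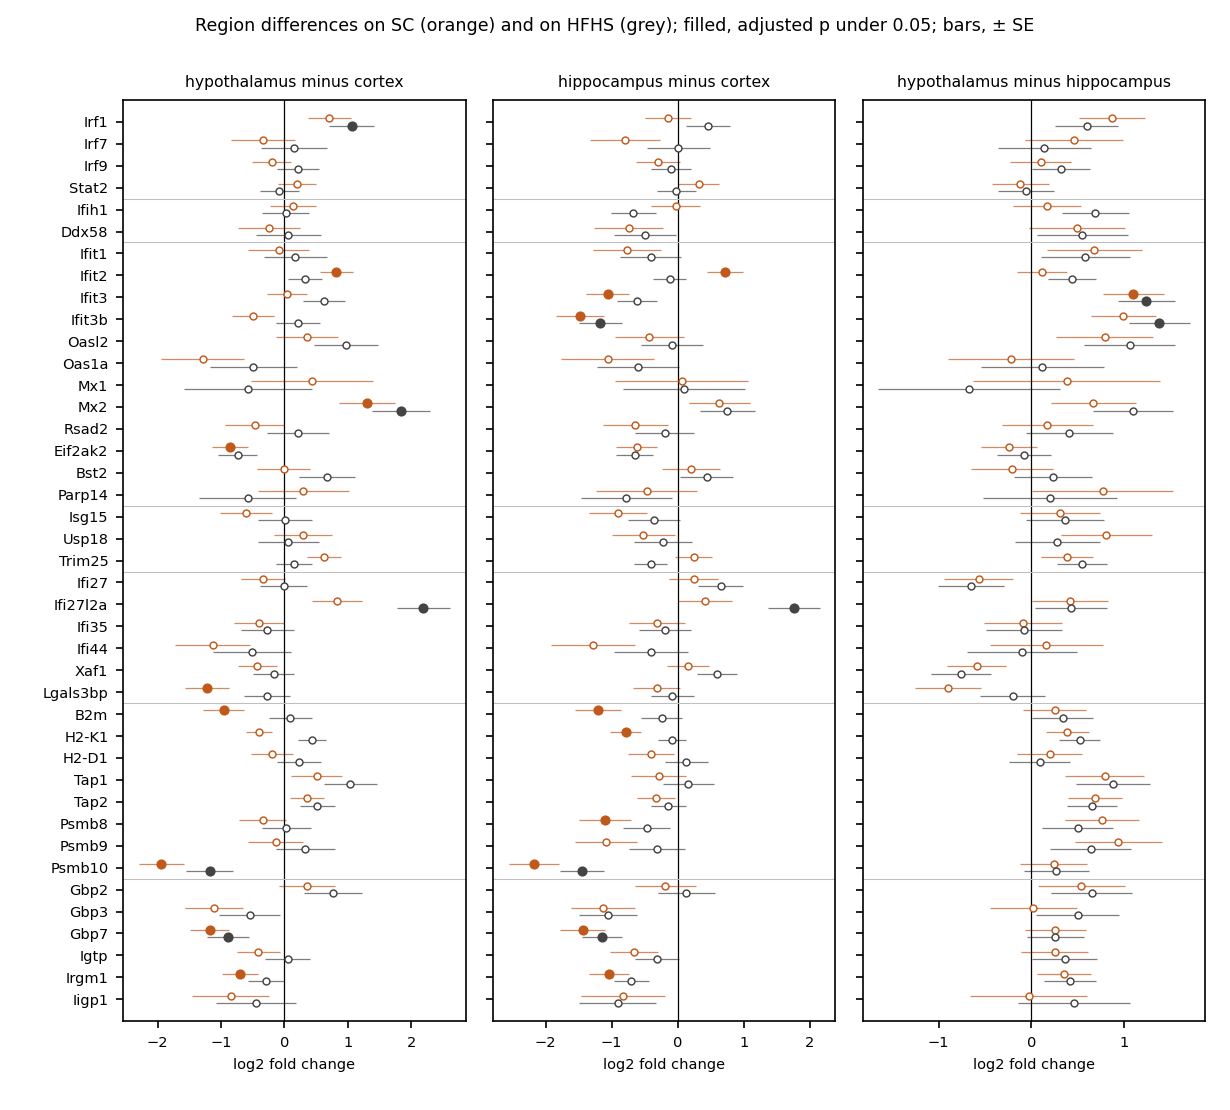
Log2 fold change (edgeR, bars ± SE) of each of the 41 genes for the 3 region contrasts, on SC (orange) and HFHS (grey), with filled points for an adjusted p under 0.05. Psmb10 and Gbp7 lie to the left of 0 in both contrasts with cortex on both diets, and Ifit3 to the right in hypothalamus minus hippocampus.

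Among the transcription factors, Irf1 had the highest level, Irf7 and Irf9 drive the type I response, and Stat2 carries it to the nucleus. Irf1, which acts downstream of interferon gamma, ranged in hypothalamus on SC from 21.2 to 48 CPM (counts scaled by library size), with a median of 39.6 CPM. On HFHS the 5 hypothalamus replicates had 46.6, 27.3, 36.8, 34.3 and 51.5 CPM of Irf1. In cortex the range of Irf1 was 6.56 to 58.4 CPM on SC (median 16.7) and 11.9 to 27.8 CPM on HFHS (median 18.8). The groups overlapped on both diets, by 1 hypothalamus library on HFHS. On HFHS the Irf1 level was higher in hypothalamus than in cortex by 1.06 on the log2 scale (SE 0.35, edgeR adjusted p = 0.026). That call was lost without hypothalamus HFHS replicate 1 (adjusted p = 0.0579 by edgeR) or 5 (0.0713), or without cortex HFHS replicate 3 (0.0546) or 6 (0.058). Hippocampus had 19.8, 14, 19, 25.4 and 25 CPM on SC and 14.5 to 34.7 CPM on HFHS (median 27.4). Irf7, Irf9 and Stat2 were called in no region contrast.

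The RNA sensors Ddx58 (RIG-I) and Ifih1 (MDA5), which detect viral double-stranded RNA, were also called in none of the region contrasts. Ddx58 lay between 2.54 and 17.9 CPM in hypothalamus on SC (median 11.8) and between 3.51 and 30.2 CPM in cortex on SC (median 11). Its 5 hippocampus replicates on SC had 7.67, 4.15, 2.88, 13.1 and 13.1 CPM, and its 5 hypothalamus replicates on HFHS 10.4, 10.6, 6.56, 11.5 and 14.3 CPM. These groups overlapped. On HFHS the range was 3.45 to 10.6 CPM in hippocampus (median 7.46) and 1.55 to 19.1 CPM in cortex (median 12).

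The Ifit family, whose products bind viral RNA and block its translation, gave the largest number of called effectors. Ifit3 ranged from 41.6 to 82.6 CPM in hypothalamus on SC (median 55.8) and had 92.8, 81.6, 49.2, 93.2 and 78.9 CPM there on HFHS. In hippocampus on SC it had 12, 31.6, 14.8, 49 and 27.6 CPM, and on HFHS 15.6 to 65.4 CPM (median 29.1). On each diet 1 hippocampus library reached into the hypothalamus range.

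The level of Ifit3 was higher in hypothalamus than in hippocampus by 1.10 (log2, SE 0.33, edgeR adjusted p = 0.0311) on SC and by 1.24 (SE 0.31, adjusted p = 0.0141) on HFHS. The call on SC rested on several libraries. It was lost without hypothalamus SC replicate 2 (edgeR adjusted p = 0.0507), 4 (0.0605) or 6 (0.0727), and without hippocampus SC replicate 1 (0.106), 3 (0.0946) or 5 (0.0538). It was lost as well without the 3 libraries of short transcripts (adjusted p = 0.0639). In cortex Ifit3 had 39 to 87 CPM on SC (median 49.6) and 26.4 to 75.7 CPM on HFHS (median 48.8). Against cortex, hippocampus on SC was lower by a log2 difference of -1.06 (SE 0.33, edgeR adjusted p = 0.0156).

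Ifit3b was lower in hippocampus than in cortex on both diets, and lower than in hypothalamus on HFHS. Its 5 hippocampus libraries on SC had 6.71, 20.6, 9.36, 21 and 15.2 CPM, below every cortex library (27 to 53.2 CPM, median 40.8). The log2 difference was -1.48 (SE 0.36, edgeR adjusted p = 0.00224), and on HFHS it was -1.17 (SE 0.32, adjusted p = 0.00689). On HFHS hippocampus had 7.05 to 43.6 CPM (median 14) and cortex 19.9 to 55.7 CPM (median 35), and these groups overlapped. Against hippocampus on HFHS, hypothalamus with 43.2, 55.4, 34.5, 42.7 and 47.7 CPM was higher by 1.38 (SE 0.33, edgeR adjusted p = 0.00963). On SC the hypothalamus range of Ifit3b was 19.1 to 38.4 CPM (median 29.2), with an adjusted p over 0.05 against hippocampus. Ifit3 and Ifit3b share 61.8% and 53.8% of their transcripts' 31-base stretches with each other, so the split of reads between the pair is uncertain.

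Ifit2 went the other way on SC. It ranged from 19.7 to 34.3 CPM in hypothalamus (median 26.3) and from 5.33 to 26.6 CPM in cortex (median 14.2), and hippocampus had 25.7, 33.6, 26, 16.8 and 20.4 CPM. The ranges met, since the highest cortex library lay above the lowest of either other region. Ifit2 was higher in hypothalamus than in cortex by 0.82 (log2, SE 0.26, edgeR adjusted p = 0.0134) and in hippocampus by 0.71 (SE 0.27, adjusted p = 0.0435). The hippocampus call was lost when any of 7 libraries was left out. These were hippocampus SC replicates 1, 2 and 3 (edgeR adjusted p = 0.0744, 0.134 and 0.0775) and cortex SC replicates 1, 2, 3 and 6 (adjusted p = 0.0583, 0.0833, 0.0705 and 0.102). On HFHS, where no contrast called it, Ifit2 had 26.8, 30.8, 29.2, 23.7 and 29.5 CPM in hypothalamus, 15.2 to 31.8 CPM in hippocampus (median 19.3) and 9.59 to 26.7 CPM in cortex (median 25.1).

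Mx2, an Mx-family GTPase gene annotated as a polymorphic pseudogene, was low everywhere but higher in hypothalamus than in cortex on both diets. It ranged from 1.72 to 3.15 CPM in hypothalamus on SC (median 2.57) and from 0.308 to 1.53 CPM in cortex (median 1.09), without overlap. The log2 difference was 1.30 (SE 0.44, edgeR adjusted p = 0.0206), and on HFHS it was 1.84 (SE 0.46, adjusted p = 0.00317). The call on SC was lost without cortex SC replicate 2 (edgeR adjusted p = 0.0528) or 6 (0.0523), and without the 3 libraries of short transcripts (0.0675). On HFHS hypothalamus had 1.59, 2.4, 4.79, 2.76 and 5.18 CPM and cortex 0.488 to 1.63 CPM (median 0.832), which overlapped by 1 library. Hippocampus lay between, with 1.3, 2.02, 1.37, 1.35 and 1.56 CPM on SC and 0.179 to 3.21 CPM on HFHS (median 1.7). Of the Mx2 level, 99% was assigned to transcripts not annotated as coding, and 88.3% to 1 transcript that the annotation holds as a polymorphic pseudogene. The Mx2 RNA is thus not evidence of a working antiviral protein. Eif2ak2, the kinase PKR that halts translation, was lower in hypothalamus than in cortex on SC by a log2 difference of -0.86 (SE 0.29, edgeR adjusted p = 0.0203). The other 7 effectors, Ifit1, Oasl2, Oas1a, Mx1, Rsad2, Bst2 and Parp14, were called in no region contrast.

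Isg15, the ubiquitin-like tag, its protease Usp18 and the ligase Trim25 were called in no region contrast. Isg15 had 2.86 to 6.28 CPM in hypothalamus on SC (median 4.98) and 1.9 to 17.1 CPM in cortex on SC (median 6.57), and 2.94, 2.05, 1.68, 6.68 and 5.85 CPM in hippocampus on SC. On HFHS it had 8.89, 3.09, 4.09, 4.65 and 6.24 CPM in hypothalamus, 1.91 to 6.13 CPM in hippocampus (median 4.19) and 1.98 to 7.91 CPM in cortex (median 5.54). The groups overlapped throughout.

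Of the other interferon-induced genes, Ifi27l2a was called higher in both other regions than in cortex on HFHS. Cortex on HFHS had 0.345 to 1.72 CPM of the RNA of this small membrane protein (median 1.04). Hypothalamus with 6.98, 3.41, 8.26, 3.75 and 2.85 CPM lay wholly above it, by 2.19 on the log2 scale (SE 0.42, edgeR adjusted p = 0.000172). Hippocampus with 1.5 to 5.08 CPM (median 4.15) was higher by 1.76 (SE 0.39, adjusted p = 0.00126), and its lowest library lay under the highest cortex library. On SC neither contrast was called. There Ifi27l2a had 3.1 to 8.52 CPM in hypothalamus (median 3.93), 4.07, 1.3, 3.34, 4.83 and 3.76 CPM in hippocampus and 1.31 to 4.75 CPM in cortex (median 2.27).

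Lgals3bp had 32 to 62.4 CPM in hypothalamus on SC (median 50.2) and 81.3 to 168 CPM in cortex on SC (median 115), without overlap. The log2 difference was -1.22 (SE 0.35, edgeR adjusted p = 0.00679), and on the TPM scale, with the same sign, it was not called (-0.67, limma adjusted p = 0.166). In hippocampus on SC its replicates were spread most, at 61.3, 57.7, 20.3, 154 and 174 CPM. Choroid plexus markers summed to 13943, 5465, 130, 28680 and 32210 TPM in the same 5 libraries, in the same order. Endothelial markers, at 819, 444, 391, 1524 and 1551 TPM, had that order too, so the match was not particular to choroid plexus. The part of either cell type in this spread was not tested. Ifi27, called in no region contrast, had 96.9 to 154 CPM in hypothalamus on SC (median 114) and 162, 102, 104, 256 and 244 CPM in hippocampus on SC. In cortex on SC it had 85 to 410 CPM (median 93.7), and all but 1 library lay at or under 116 CPM. On HFHS Ifi27 had 133, 111, 128, 115 and 114 CPM in hypothalamus, 111 to 330 CPM in hippocampus (median 185) and 77.8 to 292 CPM in cortex (median 88.4).

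Psmb10 had the smallest adjusted p of the 41 genes in both contrasts with cortex on SC. In cortex on SC it had 34.4, 50.1, 39, 50.6, 44.2 and 184 CPM, and in hypothalamus on SC 13.4 to 25.3 CPM (median 16.2). Hippocampus on SC had 14.4, 15.7, 10.8, 16.9 and 16.4 CPM. Every cortex library on SC lay above every library of the other regions on SC. The log2 difference from cortex was -1.94 in hypothalamus (SE 0.36, edgeR adjusted p = 6.45e-05) and -2.18 in hippocampus (SE 0.38, adjusted p = 9.65e-05). Without cortex SC replicate 6, the library with 184 CPM, these were -1.32 and -1.56 and still called.

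On HFHS the Psmb10 differences from cortex were -1.18 in hypothalamus (SE 0.37, edgeR adjusted p = 0.0181) and -1.45 in hippocampus (SE 0.33, adjusted p = 0.00162). Cortex then had 29.9, 43.6, 19.3, 37.5, 36.3 and 125 CPM, hypothalamus 19.8, 27, 23.5, 17.2 and 19.5 CPM, and hippocampus 15.4 to 24.2 CPM (median 17.3). Cortex HFHS replicate 3 was the 1 cortex library within the range of the other regions. Without cortex HFHS replicate 6, the library with 125 CPM, the hypothalamus difference was -0.64 and not called (edgeR adjusted p = 0.149), and the hippocampus difference was -0.91 (adjusted p = 0.02). On the TPM scale, all 4 differences of Psmb10 from cortex were called with the same sign, from -0.64 to -1.31. Only 29.5% of the Psmb10 level came from its coding transcript, and 47.3% was assigned to 1 transcript with a retained intron. The coding transcript had mean levels of 16.4, 12.8 and 35.1 TPM in hypothalamus, hippocampus and cortex on SC and of 18.8, 14.7 and 31.7 TPM on HFHS, with cortex again the highest.

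B2m had 69.1 to 241 CPM in hypothalamus on SC (median 135), 113, 79.3, 84.6, 133 and 183 CPM in hippocampus on SC and 125 to 525 CPM in cortex on SC (median 234). The groups overlapped. Against cortex the log2 difference was -0.96 in hypothalamus (SE 0.33, edgeR adjusted p = 0.0208) and -1.21 in hippocampus (SE 0.35, adjusted p = 0.00831). The hypothalamus call was lost without cortex SC replicate 6 (edgeR adjusted p = 0.105) and without hypothalamus SC replicate 1 (0.0583) or 3 (0.0509). On the TPM scale neither was called, at -0.26 (limma adjusted p = 0.441) and -0.55 (adjusted p = 0.118). On HFHS B2m had 233, 202, 183, 131 and 172 CPM in hypothalamus, 115 to 170 CPM in hippocampus (median 141) and 56.7 to 328 CPM in cortex (median 164), and it was not called.

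By CPM all 8 MHC class I genes lay lower in hippocampus than in cortex on SC, with 4 called. Of all genes, 15.3% were called lower there, and their median was 0.04. On the TPM scale 3 of the 8 were positive and 1 was called lower, as were 6.88% of all genes. Without cortex SC replicate 4, the edgeR median over all 41 genes in this contrast went from -0.52 to -0.06. The genes that edgeR called, besides B2m and Psmb10, were H2-K1 (-0.79, SE 0.23, edgeR adjusted p = 0.00837) and the immunoproteasome subunit Psmb8 (-1.10, SE 0.40, adjusted p = 0.0363). Between hypothalamus and hippocampus all 8 were positive on both diets and on both scales, with medians of 0.54 on SC and 0.51 on HFHS, yet edgeR called none. Unadjusted edgeR p was under 0.05 for 1 of them on SC and for 3 on HFHS, against 5029 and 4403 of all 21574 genes. The peptide transporter genes Tap1 and Tap2, and H2-D1 and Psmb9, were called in no region contrast. Reads of H2-D1 and H2-K1 are partly shared with other MHC genes, at 27.5% and 23.3% of their 31-base stretches.

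The interferon-inducible GTPases, which attack the vacuoles of intracellular parasites and bacteria, included Gbp7 and Irgm1 as called genes. Gbp7 had 11.9 to 23.1 CPM in hypothalamus on SC (median 16.5), 11, 11.6, 8.76, 18.5 and 20.4 CPM in hippocampus on SC and 15 to 75.5 CPM in cortex on SC (median 33.8). Against cortex it was lower by -1.18 in hypothalamus (log2, SE 0.31, edgeR adjusted p = 0.00354) and by -1.44 in hippocampus (SE 0.34, adjusted p = 0.00156). The ranges overlapped at their ends.

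On HFHS Gbp7 had 25.7, 19.2, 15.4, 24.6 and 22.9 CPM in hypothalamus, 12.2 to 27 CPM in hippocampus (median 16.9) and 20 to 56.1 CPM in cortex (median 41.9). The differences from cortex were -0.89 (SE 0.33, edgeR adjusted p = 0.0466) and -1.15 (SE 0.30, adjusted p = 0.00464). The first of these lay near the threshold and was lost when any hypothalamus HFHS library, or cortex HFHS replicate 1, 2, 4 or 5, was left out, with edgeR adjusted p between 0.0522 and 0.116. On the TPM scale Gbp7 kept its sign in all 4 contrasts with cortex and was called in none, with limma adjusted p between 0.109 and 0.412.

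Irgm1 had the highest mean TPM of the GTPase genes over the 35 libraries (17.6 TPM, with Igtp at 16.9 TPM). It had 15.1 to 28.8 CPM in hypothalamus on SC (median 21.5), 12.2, 17, 9.32, 26.2 and 20.6 CPM in hippocampus and 21 to 57.6 CPM in cortex (median 32.2). Its log2 differences from cortex were -0.70 (SE 0.28, edgeR adjusted p = 0.0476) and -1.04 (SE 0.30, adjusted p = 0.00765), with overlapping ranges. On HFHS it had 23.7, 26.3, 18.7, 28.4 and 38.1 CPM in hypothalamus, 13.1 to 32.9 CPM in hippocampus (median 15.8) and 15.6 to 45.8 CPM in cortex (median 33.6), without a call. All 6 GTPase genes lay lower in hippocampus than in cortex on SC by CPM (median -0.93, 2 called). Of all genes, 15.3% were called lower there, and their median was 0.04. Without cortex SC replicate 4, the edgeR median over all 41 genes was -0.06 in this contrast. On the TPM scale 2 of the 6 were positive and none was called. Gbp2, Gbp3, Igtp and Iigp1 were called in no region contrast.

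**Figure D4:**
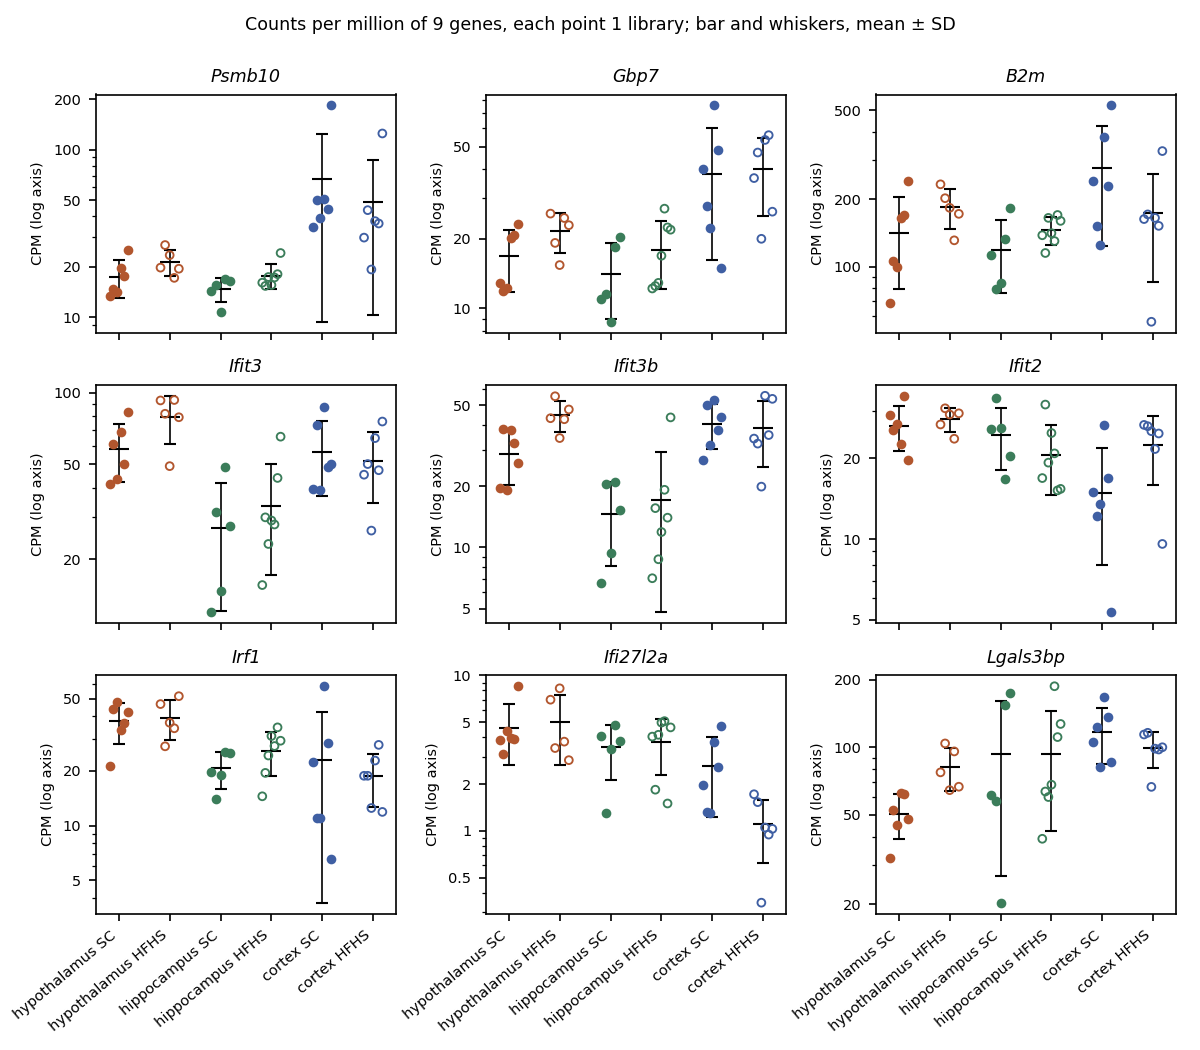
CPM of 9 of the genes (log axis), 1 point per library, filled for SC and open for HFHS, with mean ± SD. Psmb10 in cortex lies between 34.4 and 184 CPM on SC, above all libraries of the other regions on SC.

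The diet was compared within each region, and none of the 41 genes was called. In hypothalamus, hippocampus and cortex edgeR called 0% of 19272, 0% of 19036 and 0% of 17844 genes. At an unadjusted p under 0.05 there were 1639, 984 and 1652 genes, of which 4, 0 and 1 were among the 41. DESeq2 called 89, 14 and 476 genes and none of the 41, and limma on the TPM scale called no gene.

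Most of the 41 genes had a higher level on HFHS in hypothalamus and hippocampus, where 33 and 31 had a positive log2 difference with medians of 0.19 and 0.16, against medians of -0.01 and 0.00 over all genes. Leaving out single libraries gave medians from 0.09 (without SC replicate 1) to 0.34 (without SC replicate 6) in hypothalamus, with 26 to 35 positive. In hippocampus they ran from 0.07 (without SC replicate 3) to 0.35 (without SC replicate 4), with 24 to 36 positive. On the TPM scale 27 and 28 were positive, with medians of 0.11 and 0.08. In cortex 12 were positive with a median of -0.14, but without cortex SC replicate 4 it was 32 with a median of 0.20, and on the TPM scale 31 with a median of 0.11. It was 20 with a median of -0.00 without cortex HFHS replicate 3, and 2 with a median of -0.30 without cortex HFHS replicate 5. The direction in cortex thus turned on single libraries and on the scale.

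The smallest p in hypothalamus belonged to Lgals3bp. Its hypothalamus level was 77.3, 104, 64.4, 95.8 and 66.7 CPM on HFHS, above all 6 libraries on SC (32 to 62.4 CPM). The log2 difference was 0.70 (SE 0.19, edgeR adjusted p = 0.472). Of all 19272 genes tested there, 0.509% likewise had every HFHS library above every SC library. Igtp, chosen for mention after its values were seen, was the other of the 41 genes to do so, at a log2 difference of 0.34 (SE 0.14), and was not called. Ifit3b differed by 0.62 (SE 0.21, edgeR adjusted p = 0.482) and H2-K1 by 0.40 (SE 0.15, adjusted p = 0.485). H2-K1 had 181, 164, 194, 168 and 160 CPM on HFHS and 95.1 to 164 CPM on SC (median 133) in hypothalamus, so the groups overlapped between 160 and 164 CPM. Its other groups had 88.5, 71.2, 84.2, 123 and 128 CPM in hippocampus on SC, 86.5 to 148 CPM on HFHS, and 93 to 282 CPM and 64.2 to 167 CPM in cortex on SC and HFHS.

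In hippocampus the smallest p belonged to Trim25, Ifih1 and Stat2, all with a lower mean on HFHS. Trim25 had 7.01, 6.03, 6.43, 10.2 and 9.1 CPM on SC and 4.96 to 7.37 CPM on HFHS (median 5.93), a log2 difference of -0.39 (SE 0.19, edgeR adjusted p = 0.876). Ifih1 had 7.33, 3.8, 5.19, 9.1 and 10.2 CPM on SC and 2.31 to 8.71 CPM on HFHS (median 4.19), at -0.64 (SE 0.34, edgeR adjusted p = 0.876). Stat2 had 22.5, 21.2, 16.4, 28.2 and 21.2 CPM on SC and 13.4 to 24.6 CPM on HFHS (median 17.3), at -0.33 (SE 0.19, edgeR adjusted p = 0.876). The diets overlapped for each of the 3.

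In cortex Ifi27l2a had 1.31 to 4.75 CPM on SC and 0.345 to 1.72 CPM on HFHS, a log2 difference of -1.22 (SE 0.45, edgeR adjusted p = 0.373). Ifit2 differed by 0.61 (SE 0.35, edgeR adjusted p = 0.667) and B2m by -0.65 (SE 0.41, adjusted p = 0.717), with overlapping libraries.

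Whether the diet difference itself differed between regions was tested as an interaction, and edgeR called 0% of 21574 genes for hypothalamus minus cortex, 0% for hippocampus minus cortex and 0% for hypothalamus minus hippocampus. Unadjusted p was under 0.05 for 2496, 2007 and 433 genes, of which 3, 4 and 0 were among the 41, and DESeq2 called 125, 23 and 4 genes, none of the 41. With limma on the TPM scale 1, 0 and 0 genes were called, again none of the 41. For hypothalamus minus cortex the smallest p belonged to H2-K1 (0.83, SE 0.31, edgeR adjusted p = 0.302), Ifi27l2a (1.37, SE 0.57, adjusted p = 0.344) and B2m (1.05, SE 0.47, adjusted p = 0.373). For hippocampus minus cortex it belonged to Ifi27l2a (1.35, SE 0.56, edgeR adjusted p = 0.516), H2-K1 (0.71, SE 0.31, adjusted p = 0.52) and Ifit2 (-0.83, SE 0.37, adjusted p = 0.523). For hypothalamus minus hippocampus Lgals3bp came first (0.70, SE 0.50), then Ifih1 (0.52, SE 0.52) and Ifit2 (0.33, SE 0.38), each with an edgeR adjusted p of 1.

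**Figure D5:**
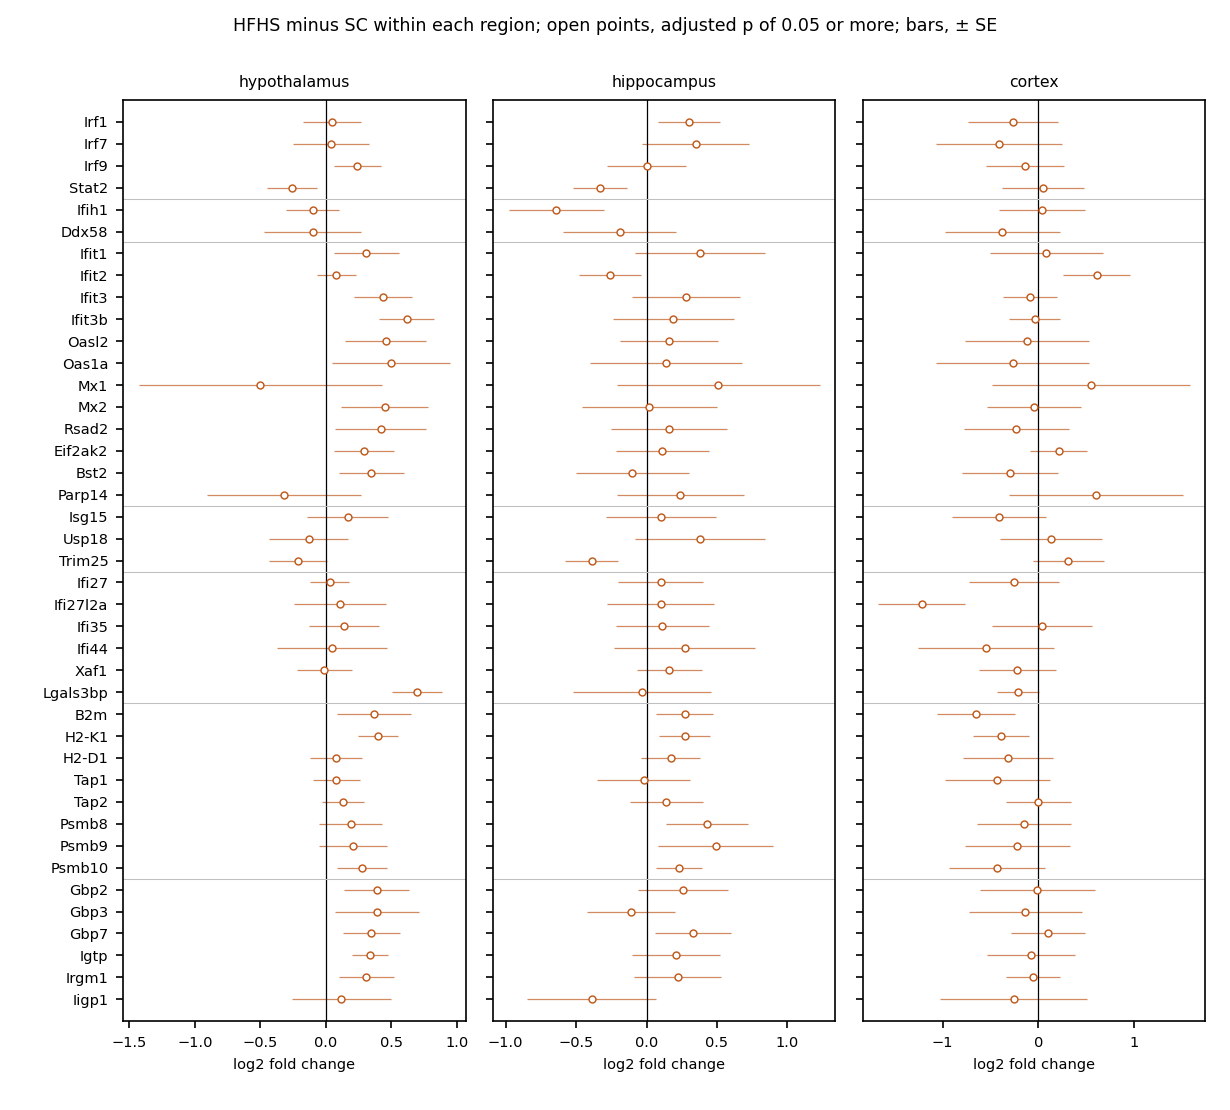
Log2 fold change of HFHS minus SC (edgeR, bars ± SE) of each of the 41 genes in each region. All points are open (adjusted p of 0.05 or more), with 33 positive in hypothalamus, 31 in hippocampus and 12 in cortex.

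Other genes of the pathway, 47 in number, were read alongside, and 42 of them were tested for regions. Of the interferon genes themselves, Ifna2, Ifna4 and Ifne had no read in any library, Ifnb1 had 0 to 10 reads and Ifnk 0 to 8. Ifng, the gene of interferon gamma, had 24, 57, 43, 42, 53 and 36 reads in hypothalamus on SC and 42, 31, 22, 65 and 33 on HFHS. In hippocampus it had 1, 0, 0, 18 and 5 reads on SC and 0 to 2 on HFHS, and in cortex 0 to 17 reads on SC and none on HFHS. All 11 hypothalamus libraries thus had more Ifng reads than any library of the other regions. Against cortex, edgeR gave Ifng an adjusted p of 0.00702 on SC and 0.000128 on HFHS, and against hippocampus 0.0768 and 0.00189.

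Against cortex on SC, 7 pathway genes were called higher and 7 lower in hypothalamus, and 5 and 5 in hippocampus. Among all genes the shares were 17.7% and 18.3%, and 15.4% and 15.3%, so these counts of 42 were close to or below the background. On HFHS the counts were 9 and 2 in hypothalamus, where 14.6% and 9.21% of all genes were called, and 9 and 3 in hippocampus, where 13.4% and 10.8% were. Hypothalamus and hippocampus differed in none of them on SC and in Ifng on HFHS. On SC 8 of the 42 had an unadjusted edgeR p under 0.05, against 5029 of all 21574 genes. Socs3, a feedback inhibitor of cytokine receptor signalling, had 63.5 to 219 CPM in hypothalamus on SC against 1.39 to 32.1 CPM in cortex (log2 difference 3.98, SE 0.61, edgeR adjusted p = 5.1e-06). On HFHS it had 92.9 to 204 CPM against 0.0751 to 4.69 CPM (5.71, SE 0.68, adjusted p = 8.18e-08). Tlr3, an endosomal receptor for double-stranded RNA, was lower in hypothalamus on SC, at 12.2 to 23.7 CPM against 61.8 to 105 CPM in cortex (-2.26, SE 0.44, edgeR adjusted p = 0.000143). The interferon gamma receptor chain Ifngr2 was lower too, by a log2 difference of -0.91 (SE 0.19, edgeR adjusted p = 0.000366). On SC the summed oligodendrocyte markers were higher and the astrocyte markers lower in every hypothalamus library than in any cortex library, by the ranges given above. For oligodendrocyte markers the ranges overlapped on HFHS, at 36236 to 96931 against 7146 to 58268 TPM. Astrocyte markers overlapped too, at 2687 to 12873 against 11571 to 19939 TPM. Ependymal markers did not overlap on SC, at 3438 to 6396 TPM in hypothalamus against 80.7 to 351 TPM in cortex. On HFHS they lay apart as well, at 2699 to 4582 against 120 to 355 TPM. Oligodendrocyte precursor markers were likewise apart, at 74.5 to 276 against 1.77 to 13.1 TPM on SC. Their sums on HFHS were 19.1 to 89.3 against 2.04 to 9.77 TPM. The part of these cell types in the differences was not tested.

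MHC class II genes, which present outside antigen on professional antigen-presenting cells, had the largest median diet difference of the pathway lists in hypothalamus and hippocampus, though edgeR called none of the 7. In hypothalamus all 7 were positive, with a median of 1.24 and an unadjusted edgeR p under 0.05 for 4. In hippocampus all 7 were positive, with a median of 1.24 and such a p for 5. Over all genes, unadjusted p was under 0.05 for 1639 of 19272 in hypothalamus and 984 of 19036 in hippocampus. On the TPM scale the medians were 1.07 and 1.21, with 7 and 6 of 7 positive. H2-Ab1, a class II beta chain, had 20 to 57.9 CPM in hypothalamus on SC and 24.1 to 115 CPM on HFHS (log2 difference 1.29, SE 0.38, edgeR adjusted p = 0.472). In cortex the median was 0.28. Microglia markers summed to 315 to 1272 TPM in hypothalamus on SC and 493 to 1227 TPM on HFHS, and border macrophage markers to 27.3 to 81.1 and 22 to 67.8 TPM. In hippocampus the microglia sums were 465 to 863 TPM on SC and 476 to 2426 TPM on HFHS, and the border macrophage sums 15.5 to 63 and 25.9 to 85.4 TPM. Markers of oligodendrocyte precursors moved the other way in hypothalamus, from 74.5 to 276 TPM on SC to 19.1 to 89.3 TPM on HFHS. In hippocampus their sums were 19.6 to 47.8 TPM on SC and 9.79 to 25.6 TPM on HFHS. The ranges overlapped in both regions. The part of these cell types in the class II differences was not tested. Against cortex, H2-Eb1, a further class II beta chain, was higher on HFHS in hypothalamus by 3.34 (log2, SE 0.57, edgeR adjusted p = 3.24e-05), at 8 to 48.2 CPM against 1.1 to 6.67 CPM.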

How the data were processed

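The 35 libraries form 6 groups of region and diet. Each deposited file lists estimated counts and TPM for every transcript, made by the authors with Salmon on GRCm38, and FastQC was also used, per the submitters' processing notes. For the tool versions and the transcript set, nothing was given in the sources used here. Among 140948 transcripts, 139852 matched GENCODE mouse release M21, and the rest, 0.214% to 0.535% of the reads of a library, were left out. Estimated counts were summed per gene and rounded to whole numbers, and TPM values were summed per gene. CPM values were computed from those counts with TMM scaling. The kit, SMART-Seq v4 per the labels' protocols, was counted here without use of strand. Depth lay between 47454863 and 65812236 reads on annotated genes.

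Comparisons used edgeR 4.0.16 in R 4.3.3, with filterByExpr, TMM and the robust quasi-likelihood test, and Benjamini-Hochberg adjustment over all genes tested at 0.05. Diet was fitted within a region, on 19272, 19036 and 17844 genes, and regions and interactions in 1 model of 6 groups. The standard error (SE) was derived from the log2 fold change and its F statistic. Alternatives were DESeq2 1.42.0, limma 3.58.1 on log2(TPM + 1), other scaling, no filter, a replicate block, each pair of groups alone, and libraries left out. The procedure was tested on simulated data. Values are printed for the most abundant gene of each role, for called genes with the largest differences and for those with the smallest p. The 41 genes, the other lists and the tests were chosen with earlier results of these data known. Protein sequences were not used here. A few genes of the other lists are not reported here by name.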

Additional observations from a re-analysis of the deposited data

Results flagged for a closer look

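For 18 named genes, each of the 6 groups was searched for a library far from the others of its group by CPM. This gave 13 such values in 108 groups of values, while chance alone marks about 1 in 20 groups of independent values. The genes were named partly for their results and share the same libraries, so the 108 groups are not independent and the count is no test.

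Cortex replicates 6 of both diets, which also had short mean transcript lengths, held 6 of them. Ifi27 was 410 CPM in cortex SC replicate 6, where the next library had 116 CPM, and 292 CPM in cortex HFHS replicate 6, where the next had 89.3 CPM. Psmb10 was 184 CPM in the first (next 50.6 CPM) and 125 CPM in the second (next 43.6 CPM). In cortex HFHS replicate 6, Stat2 was low at 3.05 CPM (next 19.5 CPM) and Ifit2 at 9.59 CPM (next 21.7 CPM).

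Hypothalamus SC replicate 6, the other library with short transcripts, was low for Stat2 at 11.2 CPM (next 19.5 CPM) and high for Ifi27l2a at 8.52 CPM (next 4.38 CPM). Cortex HFHS replicate 3 was low for H2-K1 at 64.2 CPM (next 128 CPM) and for Lgals3bp at 66.6 CPM (next 97.7 CPM). Hippocampus HFHS replicate 7 was high for Ifit3b at 43.6 CPM (next 19.2 CPM) and Psmb10 at 24.2 CPM (next 18.1 CPM). Hippocampus HFHS replicate 5 was high for Ifi27 at 330 CPM (next 198 CPM).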

How the results depend on the processing

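Each count of called genes among the 41 was recomputed under every alternative. All 3 diet counts and all 3 interaction counts were 0 under each of them, and stayed at 0 to 0 when libraries were left out singly. Genes outside the 41 were called under some alternatives. Without the 3 libraries of short transcripts, edgeR called 207 genes higher and 308 lower on HFHS in cortex. With a replicate block these were 111 and 301, and other scaling gave 28 lower. The interaction of hypothalamus minus cortex had 166 positive and 133 negative calls with that block. Without the 3 libraries it had calls in both directions too. Leaving out single libraries gave 6 to 10 called genes for hypothalamus against cortex on SC (8 with all libraries), 6 to 11 for hippocampus against cortex on SC (9), 0 to 1 for hypothalamus against hippocampus on SC (1), 3 to 5 for hypothalamus against cortex on HFHS (5), 4 to 7 for hippocampus against cortex on HFHS (4), and 2 to 2 for hypothalamus against hippocampus on HFHS (2). Larger moves followed with the 2 groups fitted alone, at 5, 3 and 4 genes for hippocampus against cortex on SC and for hypothalamus against hippocampus on SC and HFHS. Shares over all genes are not given for that setting or for single libraries left out. By DESeq2, which called 1835 of 21457 genes higher and 1189 lower there, hypothalamus against hippocampus on SC gave 2 genes. On the TPM scale this contrast gave 2 as well. Without hippocampus SC replicate 3 its 1 call was another gene than Ifit3, lower in hypothalamus. Without the 3 libraries of short transcripts there was likewise 1 gene called lower and Ifit3 was not called. Without the 3 libraries of short transcripts, hippocampus against cortex on HFHS gave 7 and hypothalamus against hippocampus on HFHS gave 4. Of 21343 genes, 3095 were then called higher and 2709 lower in the first of these, and 1337 and 1080 in the second. Hypothalamus against hippocampus on SC had 1552 and 1594 in that setting. The cause of these moves was not tested.

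Replicate numbers were not taken as pairs, since the labels do not say whether a number marks the same mice across regions. Of 48 same-numbered pairs of libraries, 20 had a correlation of deviations over 0.1, in a range of -0.06 to 0.54. The 48 include pairs across diets, which are not the same mice, and the 0.54 was such a pair in cortex. Pairs of unlike number were not compared, so these values cannot decide whether the numbers mark pairs. With the replicate number as a block, hypothalamus against hippocampus gave 4 called genes on SC and 4 on HFHS, and hippocampus against cortex on HFHS gave 9. Of all 21574 genes, 1432 were then higher and 1090 lower in the first of these, and 1553 and 1044 in the second. In the third, 3255 were higher and 2615 lower. The block also turned the interaction of Ifit2 for hypothalamus minus hippocampus from 0.33 to -0.02, uncalled in both. For 41 results of single genes and 850 alternatives in all, 802 kept direction and call, 47 lost the call, and that 1 changed sign. The diet and interaction results among the 41 had no call to lose, and all 47 losses fell on region contrasts. The 802 therefore does not measure how stable the calls were. Single calls that the naming rule did not reach (Eif2ak2, Psmb8, and H2-K1, Irgm1 and Ifit3 against cortex) were not followed one by one. Each gene but Mx1 had reads in every library, but low counts limit the precision of some: the lowest library had 1 read of Parp14, 9 of Mx2 and 19 of Ifi27l2a.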
